A study of Mus musculus with 9 samples.

Results

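The 7 genes described here encode the chains of major histocompatibility complex (MHC) class I molecules: the heavy chains H2-K1, H2-D1, H2-Q4, H2-Q6, H2-Q7 and H2-T23, and the light chain B2m. They were chosen by name among the 16299 genes of the deposited table, which writes hyphens as dots (H2.K1, H2.D1, H2.Q4, H2.Q6, H2.Q7, H2.T23), and all 7 were present. Expression was measured by SMART-Seq v4, a kit for small amounts of RNA, in melanocytes sorted by flow cytometry from mouse epidermis, with 3 libraries in each of 3 groups. Knockout back (KB) and knockout tail (KO) libraries came from the back and the tail epidermis of Spry1flox/flox mice that also carry k14-Cre-ERT2, a Cre recombinase driven by the keratin 14 promoter and activated by tamoxifen-like ligands. Control tail (Ctrl) libraries came from the tail epidermis of Spry1flox/flox mice without Cre. All groups therefore carry the floxed Spry1 alleles, and back skin of control mice was not analysed here. The keratin 14 promoter is active in basal keratinocytes, which surround the sorted cells, so melanocytes are not where the construct is meant to act. The labels used give neither age, sex, strain nor inducing agent, and they do not say whether each library is a different animal. The p-values therefore rest on the spread among these libraries alone, part of which may be technical.

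A class I molecule is a heavy chain bound to B2m and to a short peptide cut from proteins of the cell. It is assembled in the endoplasmic reticulum, where most heavy chains need B2m to reach the cell surface. CD8 T cells read the peptides on the classical molecules H2-K and H2-D, and natural killer cells sense whether class I is present. In melanocytes class I presents pigment cell proteins such as Mlana, Pmel and Tyrp1 to CD8 T cells, which is the basis of immune attack on pigment cells in vitiligo. Interferons raise transcription of the heavy chains and B2m through factors that include IRF1 and the coactivator NLRC5.

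Recovered totals, in M (mega) counts a library, were 52.7, 47.7 and 57.1 for knockout back, 65.5, 63.3 and 45.7 for knockout tail and 66.2, 67.8 and 66.4 for control tail. The first and second knockout back libraries stood apart, in which 4628 and 6127 genes had no count at all, where every remaining library had 854 to 1739 such genes. The third knockout back and the third knockout tail libraries form a set of their own in the deposited values: a shift between this set and the other 7 libraries had been removed before deposit, and its absolute size had a median of 0.45 in log2 units. Spry1 had recovered counts of 2120, 0 and 761 in knockout back, 4446, 2082 and 508 in knockout tail and 1915, 1298 and 1587 in control tail, which is no check of the labels, since Cre is driven in keratinocytes. Eif2s3y, a Y-linked gene, had 2543 to 3922 counts in knockout back, 4890, 5677 and 0 in knockout tail and at most 154 in control tail. Xist, the transcript of the inactive X, had 1313, 1266 and 2699 counts in knockout back, 5, 19 and 6364 in knockout tail and 5354, 1711 and 4908 in control tail. Each knockout back library thus held both transcripts, and sex-linked transcripts differ between the groups. Sex make-up therefore differs along with group in the comparisons below, and its part was not tested. The melanocyte markers Pmel, Dct, Tyr, Tyrp1, Mlana, Sox10, Mitf and Kit were present in every group, and the 5 of them with counts that could be recovered summed to 517674 or more normalised counts in each library.

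The 6 heavy chain genes lie in the MHC on chromosome 17 and B2m lies on chromosome 2. All 7 had an entry in the RefSeq promoter table (build GRCm38.p6), and the stretch before each start is shown because class I promoters are a textbook case of shared control elements. The lines below give, 5′ to 3′ on the strand of the gene, up to 30 bases that hold the searched motifs, with the matches in capitals. In the first 5 genes the capitals are a kappaB-type core (GGGNNTTCC) followed by a first form of an interferon-response element (TTTCNNTTC). In H2-T23 and B2m they are a second form of that element (TTTC, then 2 bases of any kind, then TTTC), which in B2m is read on the opposite strand.
H2-K1, chr17:34000429-34000458, minus strand: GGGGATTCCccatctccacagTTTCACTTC
H2-D1, chr17:35262923-35262952, plus strand: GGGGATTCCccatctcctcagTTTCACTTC
H2-Q4, chr17:35379444-35379472, plus strand: GGGATTTCCcatctccccagTTTCACTTC
H2-Q6, chr17:35424677-35424706, plus strand: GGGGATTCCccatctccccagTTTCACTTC
H2-Q7, chr17:35439022-35439050, plus strand: GGGGATTCCcatctccccagTTTCACTTC
H2-T23, chr17:36032806-36032835, minus strand: atcctactgcTTTCTCTTTCataaagacac
B2m, chr2:122147538-122147567, plus strand: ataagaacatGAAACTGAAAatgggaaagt

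Searched on both strands in the 180 bases before the start, the kappaB-type core was in 5 of 7 members and in 3.76% of all 32851 promoters of the table. One or the other form of the interferon-response element was in 7 of 7 and in 6.17%. ATTGG, the inverted CCAAT box, was in 7 of 7 and in 27.5%, and TGACG, the core of the site alpha element, in 5 of 7 and in 14.8%, absent from the windows of H2-Q6 and H2-T23. In H2-K1, H2-D1, H2-Q7 and B2m TGACG stood before ATTGG. In H2-Q4 it stood after ATTGG, at 73 against 79 bases before the start, so this match is not at the same place. The kappaB-type core, the first interferon form and ATTGG stood together in 22 promoters, 0.067% of the table, of which 5 were those of H2-K1, H2-D1, H2-Q4, H2-Q6 and H2-Q7. The forms of the interferon element were counted apart, and a match is a run of letters, not a measured site. Only the run GGGNNTTCC was searched for the kappaB-type core. Longer or other forms were not looked for, so H2-T23 and B2m may hold a kappaB-type site that this search misses. The whole windows are shown for H2-K1, the classical chain with the smallest adjusted p below, for H2-Q7, a chain with 193 or fewer normalised counts in every tail library, and for B2m, with the matches to all 5 motifs in capitals.
H2-K1, chr17:34000348-34000527, minus strand: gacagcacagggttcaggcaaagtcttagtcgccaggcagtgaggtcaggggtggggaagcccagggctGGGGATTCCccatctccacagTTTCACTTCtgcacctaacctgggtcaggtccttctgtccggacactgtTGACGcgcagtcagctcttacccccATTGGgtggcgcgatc
H2-Q7, chr17:35438975-35439154, plus strand: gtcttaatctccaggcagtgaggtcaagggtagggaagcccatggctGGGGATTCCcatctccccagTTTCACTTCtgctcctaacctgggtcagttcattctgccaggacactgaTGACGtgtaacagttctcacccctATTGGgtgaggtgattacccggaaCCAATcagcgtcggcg
B2m, chr2:122147507-122147686, plus strand: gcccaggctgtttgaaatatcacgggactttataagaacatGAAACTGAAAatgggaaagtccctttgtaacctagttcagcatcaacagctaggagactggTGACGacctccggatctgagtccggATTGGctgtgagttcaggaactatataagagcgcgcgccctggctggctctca
In global alignment with free ends, identity was taken over the aligned part of 2 windows, whose length differed between pairs. It was 89.3% for H2-K1 and H2-D1 (121 columns) and 97.2% for H2-Q6 and H2-Q7 (141 columns), against 57.1% for H2-T23 and B2m (77 columns). H2-T23 and B2m were no more than 62.5% identical to any other member, a value from 48 columns of H2-K1 and H2-T23.

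H2-K1 (chr17:33996017-34000347, minus strand, protein coding) encodes the classical K heavy chain. Normalised counts, that is recovered counts over each library's size factor, were 66048, 64063 and 82413 in knockout back, 9937, 11334 and 12963 in knockout tail and 5882, 5705 and 5639 in control tail. The 3 groups did not overlap, and the controls lay within a few percent of each other. Counts here and below hold the difference between the library sets that had been removed from the deposited values. On the deposited values the third knockout tail library (13.11) lay below the controls (13.19 to 13.25). H2-D1 (chr17:35262730-35267499, plus strand, protein coding) encodes the classical D heavy chain. Its normalised counts were 311051, 262611 and 270726 in knockout back, 71660, 88577 and 66386 in knockout tail and 47519, 56192 and 40431 in control tail, again without overlap between groups.

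H2-T23 (chr17:36029773-36032855, minus strand, protein coding) encodes the heavy chain of Qa-1, a nonclassical molecule of limited variation that displays peptides from the leaders of other class I chains to receptors of natural killer and T cells. Its normalised counts were 32413, 34501 and 29484 in knockout back, 7882, 10831 and 11853 in knockout tail and 3792, 2074 and 1150 in control tail. The groups did not overlap.

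H2-Q6 (chr17:35424850-35430055) and H2-Q7 (chr17:35439155-35443773), both on the plus strand and protein coding, encode heavy chains of Qa-2, a nonclassical molecule held in the membrane by a lipid anchor. H2-Q6 had normalised counts of 2598, 3898 and 3400 in knockout back, 0, 256 and 0 in knockout tail and 3.94, 3.31 and 0 in control tail. H2-Q7 had 5061, 10080 and 4566 in knockout back, 10.5, 16 and 116 in knockout tail and 15.8, 193 and 13 in control tail. Both genes were at 2598 or more normalised counts in every knockout back library and at 256 or fewer in every tail library, and the tail groups overlapped each other. H2-Q4 (chr17:35379617-35385290, plus strand, protein coding), another gene of the Q region, had 30.2, 1458 and 508 in knockout back, 11.3, 0 and 11.6 in knockout tail and 84.4, 0 and 4.05 in control tail. The first knockout back library lay below the first control library, so these groups overlapped.

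B2m (chr2:122147686-122153083, plus strand, protein coding) encodes beta-2 microglobulin, the light chain that all these heavy chains share. Its normalised counts were 516159, 464120 and 262976 in knockout back, 126595, 166646 and 82358 in knockout tail and 75391, 88548 and 39400 in control tail. Knockout back lay above both tail groups, the tail groups overlapped, and the third library was the lowest in each group.

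**Figure D1:**
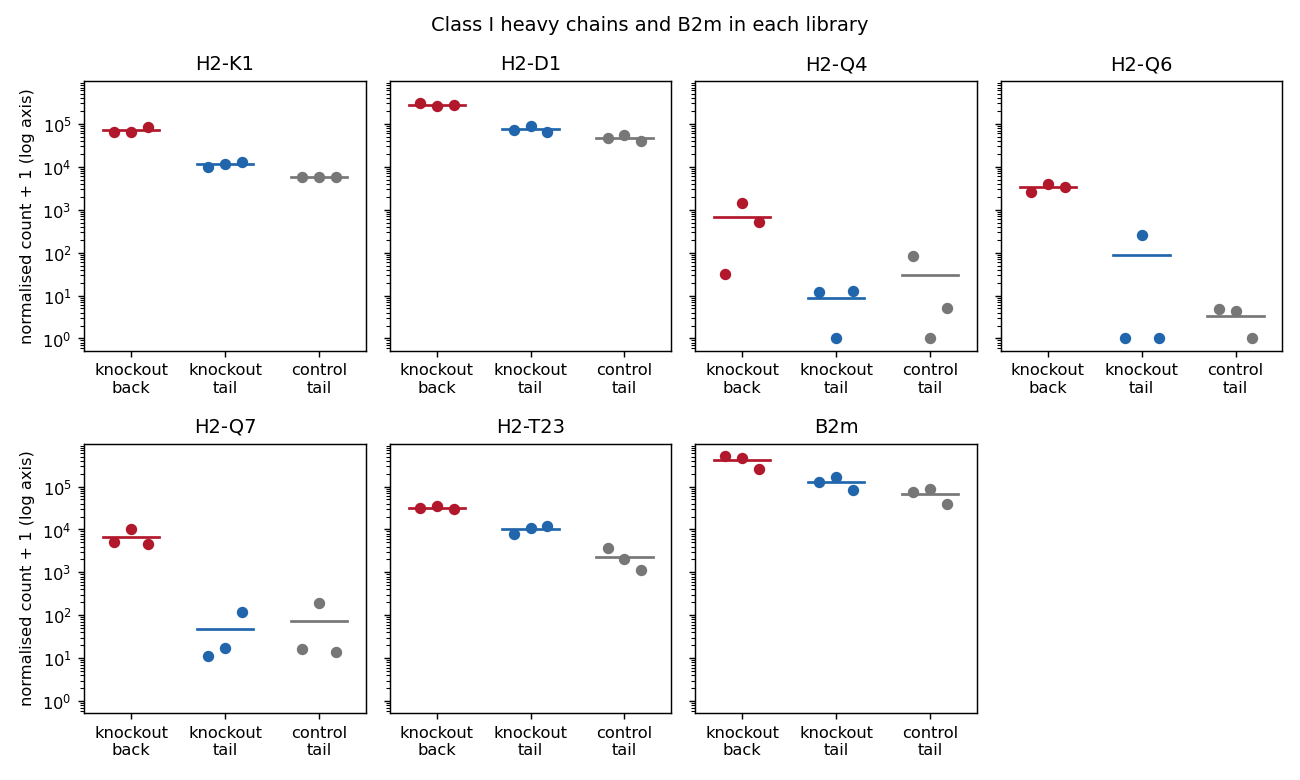
Normalised count plus 1 on a log axis for each of the 7 genes, 1 point a library in replicate order with a line at the group mean, for knockout back, knockout tail and control tail. H2-K1, H2-D1 and H2-T23 separate the 3 groups, whereas H2-Q6 and H2-Q7 are at 2598 or more in knockout back and at 256 or fewer in both tail groups.

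Levels of different genes were compared as normalised counts per kilobase of annotated exon. The length is the union of all annotated exons of a gene, such as 4.26 kilobases for H2-Q7 and 2.08 for H2-Q6. It may exceed the length of the transcripts expressed, and not equally in each gene, so the order of close genes is uncertain. In knockout back B2m was highest with a mean of 481882 ± 155475 (SD, n = 3 here and below), then H2-D1 with 109136 ± 10060, H2-K1 with 24112 ± 3428 and H2-T23 with 11122 ± 872, and the libraries of these neighbours did not overlap. H2-Q6 with 1582 ± 314 and H2-Q7 with 1540 ± 715 overlapped each other, and H2-Q4 was lowest with 256 ± 280. In knockout tail B2m had 145581 ± 49025 and H2-D1 29291 ± 4495 per kilobase. H2-K1 followed with 3884 ± 515, and overlapped H2-T23 with 3527 ± 714. In control tail B2m had 78814 ± 29584, H2-D1 18630 ± 3061, H2-K1 1954 ± 42.7 and H2-T23 810 ± 464 per kilobase, with no overlap between these neighbours. The Q genes were 2.94 to 40.9 per kilobase on average in knockout tail and 1.16 to 17.3 in control tail, where their libraries overlapped. The counts of the heavy chains are not fully separate. Of the 50-base stretches of annotated transcript, 9.63% of H2-K1, 12.8% of H2-D1, 13.6% of H2-T23, 21.8% of H2-Q4, 26.4% of H2-Q7 and 32% of H2-Q6 also occur in another gene, against 0% of B2m. The split among the heavy chains is therefore uncertain, most of all for H2-Q6, which shares 13.9% with H2-Q7, and for H2-Q7, which shares 14% with H2-Q10. An exon of Gm11131 on the other strand overlaps H2-Q4, and the strand setting of the counting is not given in the sources used here. Class I genes also differ between mouse strains, and the part of strain in these counts was not tested.

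Knockout tail against control tail compares melanocytes of one body site with and without Spry1 deletion aimed at the epidermis. The first and second knockout tail libraries also differ from the controls in sex-linked transcripts. H2-K1, H2-D1, H2-T23 and B2m had higher means in knockout tail, by 1.99-fold, 1.57-fold, 4.36-fold and 1.85-fold on normalised counts, but no member passed the test. By limma with group and library set as terms, on the deposited log2 values, 0 of 7 members had an adjusted p below 0.05, against 0.0614% of all genes in either direction and 0.0429% higher. At an unadjusted limma p below 0.05, 4 of 7 were higher and none lower, against 2.39% of all genes higher. The log2 difference by limma was 0.82 (SE 0.14, adjusted p = 0.184) for H2-K1, 0.71 (SE 0.17, adjusted p = 0.334) for H2-D1, 1.99 (SE 0.37, adjusted p = 0.209) for H2-T23 and 1.19 (SE 0.30, adjusted p = 0.366) for B2m. All 3 knockout tail libraries were above all 3 controls for H2-K1, H2-D1 and H2-T23, 3 of 7 members, against 9.7% of all genes. For H2-Q4, H2-Q6 and H2-Q7 the log2 differences were -0.19 (SE 0.61), 0.45 (SE 0.48) and -0.10 (SE 0.51), each with an adjusted limma p of 1, on counts that were mostly near 0. Within the larger set, which holds 2 knockout tail and 3 control libraries, the log2 differences were 0.83 for H2-K1, 0.74 for H2-D1, 1.90 for H2-T23 and 1.17 for B2m, and the smaller set holds no control. The limma-voom test on recovered counts also called 0 members, with 4 at an unadjusted p below 0.05, and limma with group as the only term called 0, with 2 at that level and log2 differences of 0.52 for H2-K1 and 0.47 for H2-D1.

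Knockout back against knockout tail compares body sites within one genotype, between groups that also differ in sex-linked transcripts. The classical heavy chains and the Qa-2 chains rose in knockout back: H2-K1 was 6.21-fold and H2-D1 3.73-fold above knockout tail on mean normalised counts. H2-Q6 and H2-Q7 were at 3299 ± 656 and 6569 ± 3050 normalised counts in knockout back, against 85.3 ± 148 and 47.4 ± 59.2 in knockout tail. By limma 4 of 7 members passed, all of them higher, against 0.436% of all genes in either direction and 0.141% higher. H2-K1 had a log2 difference of 2.58 (SE 0.13, limma adjusted p = 0.00103), and no gene of the table had a smaller p in this comparison. H2-D1 differed by 1.90 (SE 0.16, limma adjusted p = 0.00804), H2-Q6 by 3.43 (SE 0.45, limma adjusted p = 0.0328) and H2-Q7 by 4.19 (SE 0.48, limma adjusted p = 0.0261). The values of the Q genes are on the variance-stabilised scale, which understates differences of genes near 0 counts.

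The other 3 members did not pass in that comparison. B2m averaged 414418 ± 133709 normalised counts in knockout back and 125200 ± 42162 in knockout tail, a ratio of 3.31 and a log2 difference of 1.72 (SE 0.28, limma adjusted p = 0.0569). H2-T23 averaged 32133 ± 2520 in knockout back and 10189 ± 2062 in knockout tail, a ratio of 3.15 and a log2 difference of 1.63 (SE 0.35, limma adjusted p = 0.0884). H2-Q4 had a log2 difference of 1.57 (SE 0.58, limma adjusted p = 0.208). All 3 knockout back libraries lay above all 3 knockout tail libraries in 7 of 7 members, against 4.55% of all genes. In the larger set alone, with 2 knockout back and 2 knockout tail libraries, the log2 differences were 2.56 for H2-K1, 1.84 for H2-D1, 3.17 for H2-Q6 and 4.60 for H2-Q7. Without the first and second knockout back libraries, which leaves 1 back library, they were 2.62, 2.02, 3.95 and 3.37, and none of the 4 passed (limma adjusted p = 0.0535 for H2-K1 and 0.193 to 0.217 for the others). Over the 20 other settings the adjusted p ran from 0.000153 to 0.0535 for H2-K1 and from 0.00315 to 0.193 for H2-D1. It ran from 0.0129 to 0.217 for H2-Q6 and from 0.0075 to 0.217 for H2-Q7. The call of H2-D1 was lost without the first knockout tail library (limma adjusted p = 0.108). Those of H2-Q6 and H2-Q7 were lost whenever 1 control library or the first knockout tail library was left out, and that of H2-Q7 also without the second, at adjusted p of up to 0.173. B2m passed without the third control, the third knockout tail or the third knockout back library, with adjusted p over all settings from 0.00952 to 0.416.

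Knockout back against control tail combines body site, genotype and a difference in Y-linked Eif2s3y, which cannot be told apart there. All members except H2-Q4 rose in knockout back. H2-K1 was 12.3-fold, H2-D1 5.86-fold, H2-T23 13.7-fold and B2m 6.11-fold above control tail on mean normalised counts, and H2-Q6 and H2-Q7 were at 3299 and 6569 in knockout back against 2.42 and 73.8 in control tail. By limma 6 of 7 passed, all higher, against 3.34% of all genes in either direction and 1.05% higher. H2-K1 again had the smallest p of the table, with a log2 difference of 3.40 (SE 0.14, limma adjusted p = 0.000124). The log2 difference by limma was 2.60 for H2-D1 (SE 0.17, adjusted p = 0.00137), 3.62 for H2-T23 (SE 0.37, adjusted p = 0.00862) and 2.91 for B2m (SE 0.30, adjusted p = 0.00862). For H2-Q6 it was 3.88 (SE 0.48, limma adjusted p = 0.0138), for H2-Q7 4.08 (SE 0.51, limma adjusted p = 0.0144) and for H2-Q4 1.39 (SE 0.61, limma adjusted p = 0.213). All 3 knockout back libraries lay above all 3 controls in 6 of 7 members, against 7.41% of all genes. With the first and second knockout back libraries left out, H2-K1 passed alone among the members (limma adjusted p = 0.041, and 4.25e-05 to 0.041 over the other settings). The calls of H2-Q6 and H2-Q7 were lost whenever 1 control library was left out, at adjusted p of 0.0613 to 0.0773 (0.00505 to 0.26 over all other settings), and that of H2-T23 without the second control, at 0.0604 (0.00266 to 0.281).

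**Figure D2:**
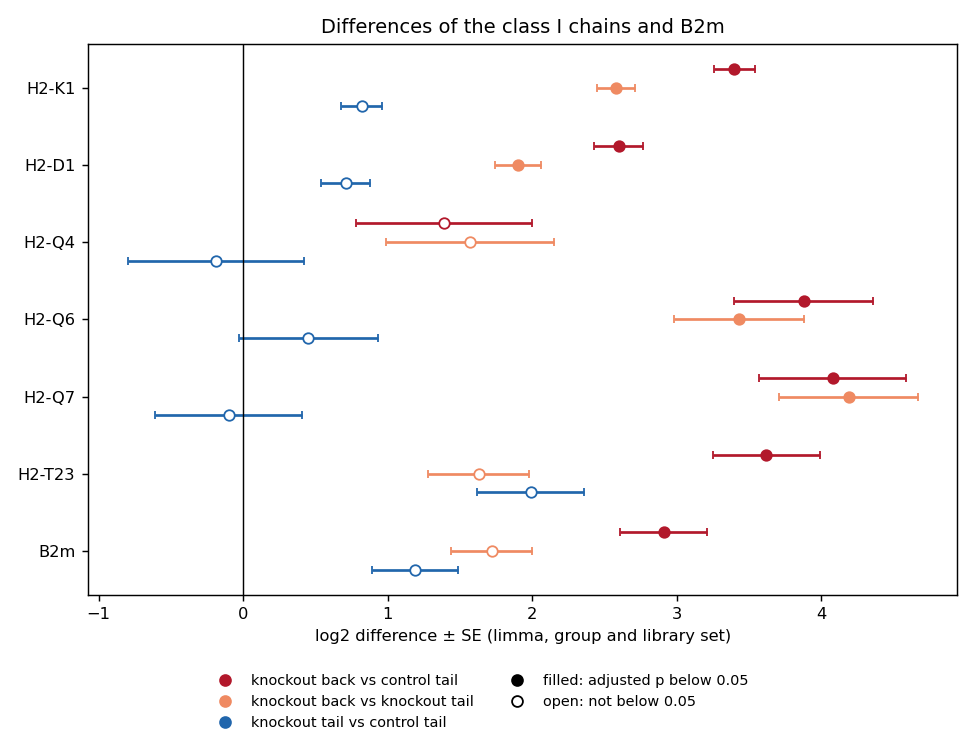
Log2 difference of each gene in the 3 comparisons, first-named group minus the other, as points with bars of 1 SE from limma with group and library set as terms. Filled points had an adjusted p below 0.05: 6 of 7 genes for knockout back against control tail, 4 of 7 for knockout back against knockout tail and 0 of 7 for knockout tail against control tail.

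These comparisons share libraries and are not independent of each other. Over the 7 members, knockout tail against control tail had a median log2 difference of 0.71, against 1.90 for knockout back against knockout tail and 3.40 for knockout back against control tail. Over all 16299 genes it was -0.07, -0.18 and -0.26. The members with a difference above 0 were 5, 7 and 7 of 7, against 42.5%, 36.7% and 33.9% of all genes. The 7 genes together took 1.64%, 1.51% and 1.17% of the recovered counts in knockout back, 0.41%, 0.52% and 0.33% in knockout tail and 0.25%, 0.27% and 0.16% in control tail. The knockout back shares were thus all above 1% and every tail share was 0.52% or lower. In RNA of whole sorted populations, fewer cells of a type and less RNA per cell cannot be told apart.

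The balance of heavy chains and B2m varied more within the groups than between their means. The 6 heavy chains summed, over B2m, gave ratios of normalised counts of 0.808, 0.811 and 1.49 in knockout back, 0.707, 0.666 and 1.11 in knockout tail and 0.76, 0.725 and 1.20 in control tail. The third library was the highest in each group, and the other libraries lay between 0.666 and 0.811. The mean log2 ratio differed by -0.11 between knockout tail and control tail, by 0.30 between knockout back and knockout tail and by 0.19 between knockout back and control tail. Each exact two-sided permutation test gave p = 0.5, adjusted to 0.5 over the 3 comparisons, where 0.1 is the smallest p that 3 libraries against 3 can give. The third libraries of knockout back and knockout tail form the smaller library set, whereas the third control belongs to the larger one.

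The make-up of the heavy chain counts is given as a description, since it was looked at after the values were seen. H2-D1 made up 74.6%, 69.7% and 69.2% of the heavy chain counts in knockout back, 80.1%, 79.8% and 72.7% in knockout tail and 82.9%, 87.6% and 85.6% in control tail. It was the main heavy chain in every library, with its highest shares in the controls. H2-K1 made up 15.8%, 17% and 21.1% in knockout back, 11.1%, 10.2% and 14.2% in knockout tail and 10.3%, 8.89% and 11.9% in control tail. H2-T23 made up 7.77%, 9.16% and 7.54% in knockout back, 8.81%, 9.76% and 13% in knockout tail and 6.62%, 3.23% and 2.44% in control tail. The shares of H2-T23 in both knockout groups were therefore above those of every control. H2-Q7 reached 1.17% to 2.68% in knockout back, against 0.3% or less in every tail library. The ratio of H2-D1 to H2-K1 was 4.71, 4.1 and 3.29 in knockout back, 7.21, 7.82 and 5.12 in knockout tail and 8.08, 9.85 and 7.17 in control tail. Knockout back lay below both tail groups, while knockout tail and control tail overlapped. An exact permutation test, two-sided, gave p = 0.1 for knockout back against either tail group and p = 0.3 for knockout tail against control tail (0.15, 0.15 and 0.3 adjusted over the 3), with 0.1 the smallest possible.

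**Figure D3:**
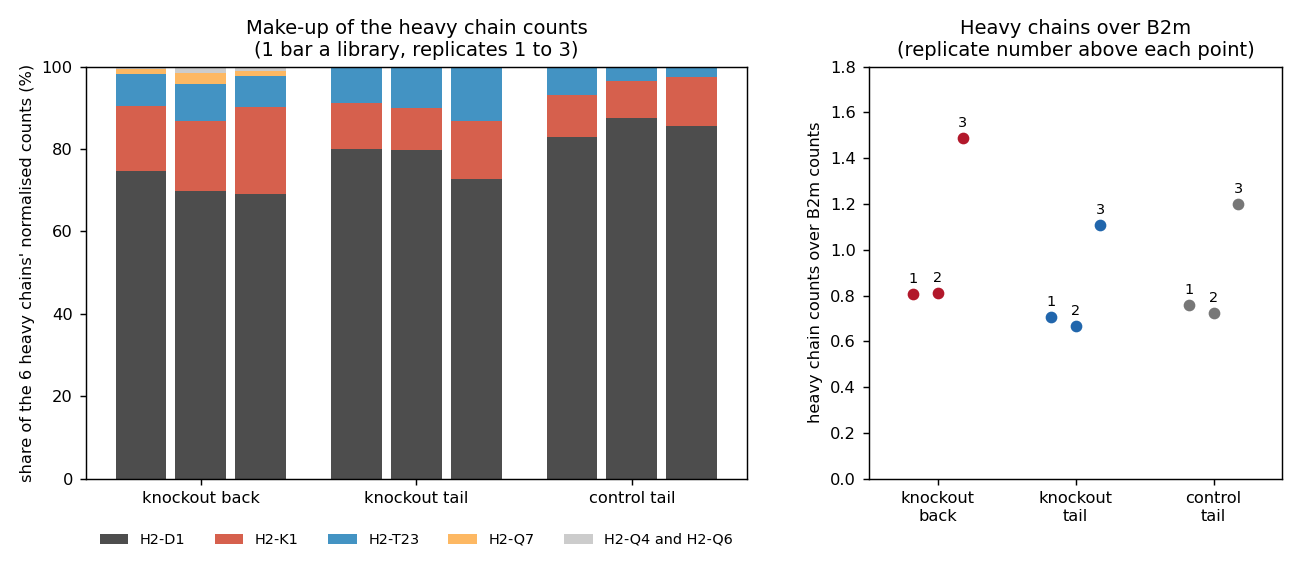
Left, the share of each heavy chain in the summed normalised counts of the 6 heavy chains, 1 stacked bar a library. Right, the heavy chain sum over B2m, 1 point a library with its replicate number: H2-D1 is the largest share in every bar and the third library has the highest ratio in each group, at 1.49, 1.11 and 1.20.

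Genes that supply class I with peptide were compared next. The 13 listed genes include the proteasome subunits Psmb8 and Psmb9, which replace standard subunits in the interferon-induced immunoproteasome, the peptide transporter genes Tap1 and Tap2, and Tapbp, which bridges that transporter and the heavy chain. For knockout back against control tail 5 of 13 rose and none fell by limma, against 1.05% of all genes higher and 3.34% in either direction. The median log2 difference was 1.19, and all 13 were above 0, against 33.9% of all genes. None of 13 passed for knockout tail against control tail (median 0.61) or for knockout back against knockout tail (median 0.50). Psmb8 had normalised counts of 8933, 8950 and 7267 in knockout back, 1169, 2241 and 1319 in knockout tail and 687, 470 and 143 in control tail. Like H2-K1 it separated the 3 groups without overlap, and it rose in knockout back against control tail by 3.53 on the log2 scale (SE 0.41, limma adjusted p = 0.0113). Psmb9 had 4396, 3851 and 2465 in knockout back, 744, 608 and 365 in knockout tail and 147, 192 and 7.29 in control tail, with a log2 difference of 3.32 between knockout back and control tail (SE 0.43, limma adjusted p = 0.0144). Tapbp rose by 2.28, Tap2 by 1.40 and Psme2, a proteasome activator subunit, by 1.36 in that comparison (limma adjusted p = 0.0278, 0.0495 and 0.0438). Tapbp had the same order of group means as H2-K1, H2-D1 and H2-T23, but its knockout groups overlapped: it had 37980, 14044 and 18435 normalised counts in knockout back and 14649, 14618 and 15940 in knockout tail, against 4277, 4037 and 4105 in control tail. Tap1 passed in no comparison. It had 5346, 4.68 and 8681 normalised counts in knockout back, 1314, 891 and 3437 in knockout tail and 552, 268 and 89.9 in control tail, and its low knockout back value was in the library with 6127 genes at 0.

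Of 14 regulators of class I transcription, 1 rose in knockout back against control tail by limma, against 1.05% of all genes. None fell there, and none passed in the other comparisons. The median log2 difference of the 14 was 0.45 for knockout back against control tail, 0.18 for knockout back against knockout tail and 0.09 for knockout tail against control tail. Nlrc5, the coactivator of class I promoters and the gene that rose, had normalised counts of 1255, 978 and 1110 in knockout back, 0, 183 and 82.1 in knockout tail and 3.15, 3.31 and 0 in control tail. Knockout back was above both tail groups. Nlrc5 rose in knockout back against control tail by 2.50 (SE 0.39, limma adjusted p = 0.028), and the difference from knockout tail was 1.97 (SE 0.37, limma adjusted p = 0.0718). Irf1, an interferon-induced transcription factor, had 3311, 0 and 9244 in knockout back, 388, 1971 and 1814 in knockout tail and 270, 686 and 299 in control tail, and passed in no comparison. The zero lay in the second knockout back library, as did the low value of Tap1.

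**Figure D4:**
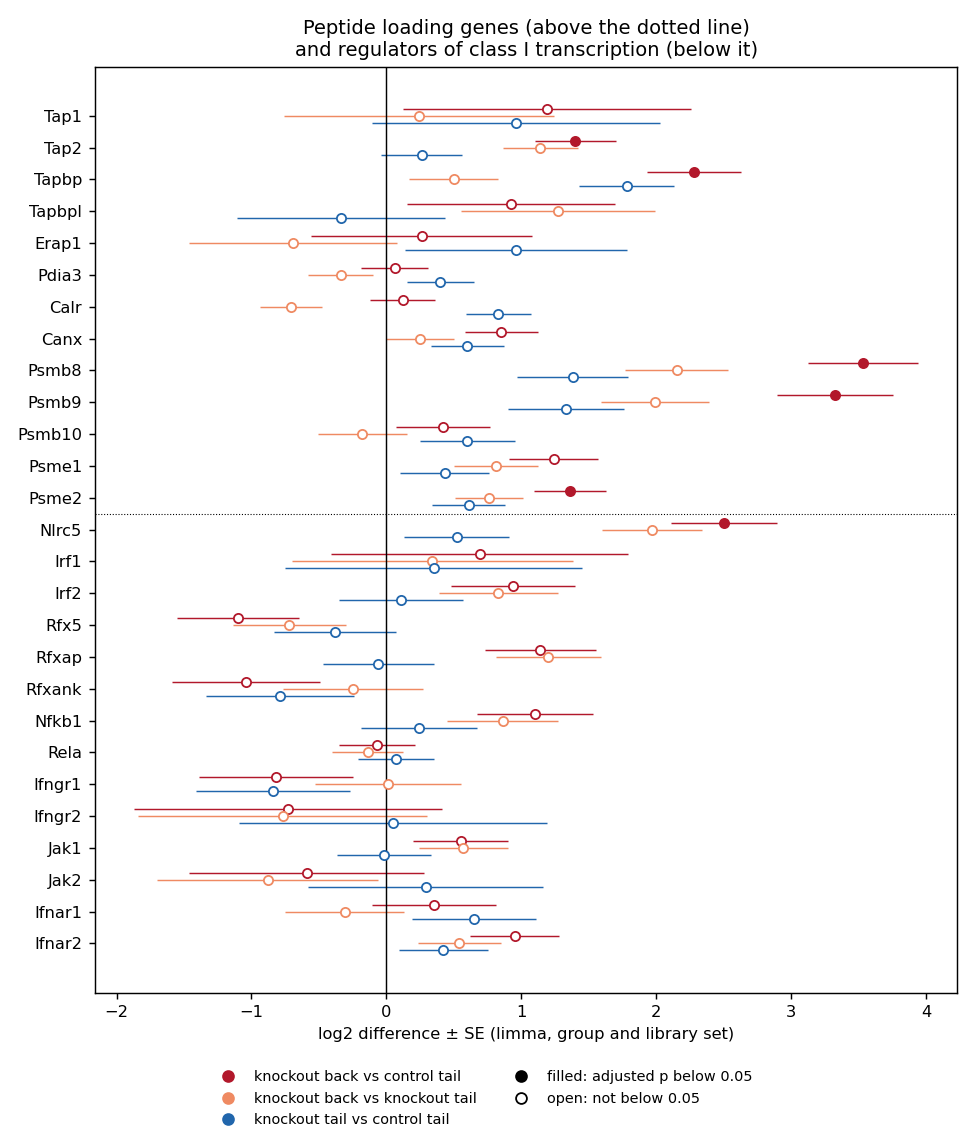
Log2 differences with bars of 1 SE by limma, first-named group minus the other, for 13 peptide loading and immunoproteasome genes above the dotted line and 14 regulators of class I transcription below it. Filled points had an adjusted p below 0.05, and all 6 of them belong to knockout back against control tail: Psmb8, Psmb9, Tapbp, Tap2, Psme2 and Nlrc5.

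Other class I genes were measured for 6 of 14 listed heavy chain genes. H2-T22, a nonclassical chain of the T region, rose in knockout back against control tail by 1.51 (SE 0.29, limma adjusted p = 0.0424). Of all genes, 1.05% rose there by limma. None of the 6 passed in the other comparisons. In knockout back against control tail, 4 of the 6 had a difference above 0, with a median of 1.32. H2-Q1 and H2-Q10 did not pass, but their means were also highest in knockout back, at 2025 and 3908 normalised counts. They were 502 and 7.13 in knockout tail and 146 and 195 in control tail. H2-Q10 ran from 73.5 to 6649 within knockout back. H2-T22 had 7713, 9239 and 10265 normalised counts in knockout back, 4608, 9134 and 6169 in knockout tail and 2637, 2770 and 2915 in control tail, so the knockout groups overlapped each other but not the controls. Of 6 measured class I-like genes, whose products resemble heavy chains, Cd1d1 rose in knockout back against control tail by 2.32 (SE 0.49, limma adjusted p = 0.0491). Cd1d1 presents lipids to natural killer T cells, and had 4300, 2827 and 854 normalised counts in knockout back, 1095, 635 and 407 in knockout tail and 258, 123 and 635 in control tail. The other 5, Mr1, Fcgrt, Hfe, Azgp1 and Procr, passed in no comparison, with log2 differences of -1.77 to 0.17 between knockout back and control tail. Cd1d1, Mr1, Fcgrt and Hfe also pair with B2m. None of the 4 measured genes for inhibitors of immune attack at the cell surface, Cd274, Cd47, Cd200 and Lgals9, passed in any comparison, with differences of 0.31 to 1.49 between knockout back and control tail.

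Markers of other cells moved with some of these results. Class II and other genes of antigen-presenting cells were present for 10 of 13 listed, and their summed normalised counts were 7175 to 26628 in knockout back, 1762 to 12028 in knockout tail and 989 to 1378 in control tail. Of the 10, 2 rose in knockout back against control tail by limma, against 1.05% of all genes. They were H2-Aa (log2 difference 3.32, SE 0.58, limma adjusted p = 0.0358) and Cd74 (2.92, SE 0.59, limma adjusted p = 0.047). None of the 10 passed in the other comparisons. Of the same 10, 5 had a difference above 0 in knockout back against control tail, with a median of -0.05. By limma H2-DMa, Cd68, Csf1r, H2-DMb1 and H2-Eb1 had differences of -0.39 to -0.12. The mean normalised counts of these named genes were higher in knockout back, from 1.28-fold for Cd68 to 17.3-fold for H2-Eb1. Those counts hold the difference between the library sets, whereas limma had library set as a term, so these measures are not alike. H2-DMa, H2-DMb1 and H2-Eb1 were at 0 in the first and second knockout back libraries and at 1254, 622 and 3047 in the third. H2-Aa, a class II chain, had 2954, 3159 and 3693 normalised counts in knockout back, 0, 0 and 1281 in knockout tail and 0, 4.96 and 0 in control tail. Cd74, the chaperone of class II chains, had 1659, 4428 and 12517 in knockout back, 107, 6.75 and 5137 in knockout tail and 3.94, 134 and 2.43 in control tail. Both were thus high in all 3 knockout back libraries and, within knockout tail, in the third library. Ptprc, which marks all leukocytes, had 0, 265 and 20.6 in knockout back, 4.04, 5.07 and 0 in knockout tail and 12.6, 8.27 and 0 in control tail. The first knockout back library thus had H2-Aa at 2954 with Ptprc at 0. That library had no count for 4628 genes, so a 0 there cannot tell absent from undetected. T cell, natural killer and leukocyte markers, 5 of 10 measured, summed to 37.7 to 892 in knockout back, 32.3 to 308 in knockout tail and 52.8 to 122 in control tail, and none passed. No gene of these lists was at 0 in all libraries of a group. H2-Aa was at 0 in knockout tail libraries 1 and 2, and H2-K1 was there at 9937 and 11334, above all controls. Whether antigen-presenting cells contributed to the class I counts of knockout back was not tested.

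Keratinocyte markers overlapped between the groups. The 6 basal genes summed to 39208 to 189571 in knockout back, 12363 to 324383 in knockout tail and 38508 to 99934 in control tail, and the 6 genes of differentiated keratinocytes to 31475 to 190450 in knockout back, 14615 to 153464 in knockout tail and 27302 to 111802 in control tail. None of these 12 genes passed in any comparison. The third knockout tail library, with the highest basal sum, had B2m at 82358, the lowest of its group, and H2-K1 at 12963, the highest. On the deposited values, without the set shift, H2-K1 was instead lowest in that library, at 13.11 against 13.96 and 14.14. Its rank within the group thus depends on the set shift. Of 7 endothelial, fibroblast and Schwann cell markers 3 were measured, the fibroblast genes Col1a1, Col3a1 and Dcn, which summed to 356 to 1630 in knockout back, 259 to 716 in knockout tail and 406 to 1246 in control tail, and none of them passed. The 5 melanocyte markers with recovered counts summed to 714881 to 841190 in knockout back, 576027 to 690015 in knockout tail and 517674 to 537754 in control tail, without overlap, a sum that leaves out Pmel, Dct and Tyrp1 and in which Mlana is the largest part in knockout back. Over all 8 markers, knockout back against knockout tail had 4 differences above 0 and a median of 0.00, with log2 differences of -0.94 for Pmel, -0.65 for Tyrp1, -0.56 for Tyr and -0.06 for Sox10 that did not pass. Mlana rose in knockout back against knockout tail (log2 difference 0.95, limma adjusted p = 0.0197) and against control tail (1.05, limma adjusted p = 0.00862). Kit, the receptor for stem cell factor, rose in knockout back against control tail (1.36, limma adjusted p = 0.0452), and Tyrp1, a melanin enzyme, in knockout tail against control tail (0.99, limma adjusted p = 0.0483). No melanocyte marker fell by the test.

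The genes whose deposited values followed the members most closely over the 9 libraries were found among the 8145 genes outside the 7 with a mean at or above the median. By Pearson correlation with the mean of the members' standardised values they were Iigp1 (0.983), Rnase1 (0.977), Mlana (0.975), Rab20 (0.974) and Psmb8 (0.974), and these correlations rest on 9 libraries in 3 groups that share the removed set shift. Iigp1, an interferon-inducible GTPase, averaged 14342 ± 4566 normalised counts in knockout back, 324 ± 440 in knockout tail and 1.38 ± 2.39 in control tail. Rnase1, a secreted ribonuclease, averaged 19128 ± 3071 in knockout back, 4505 ± 1765 in knockout tail and 3588 ± 354 in control tail. Mlana, a melanosome protein, averaged 528311 ± 152552 in knockout back, 272452 ± 78972 in knockout tail and 297850 ± 28403 in control tail. All these genes had their highest mean in knockout back. Rab20, a small GTPase of membrane traffic, averaged 2492 ± 491 in knockout back, 1546 ± 475 in knockout tail and 1547 ± 239 in control tail.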

How the data were processed

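The authors deposited 1 table of 16299 genes by 9 libraries in log2 units that range between 5.85 and 20.9. Per the submitters' processing notes, DESeq2 and GRCm38 were used, with no version. The aligner is not given in the sources used here, nor is the counting program. These values lie on a variance-stabilising curve, at 7.98 for 0 counts, so differences of genes with few counts are understated. For each gene, libraries 3 of knockout back and knockout tail together have the same mean as the other 7, within 7.14e-09, whereas the next best of 255 splits differs by up to 1.50. A shift between these sets had thus been removed, with no allowance for group. Undoing curve and shift gave whole counts (within 0.004) for 16295 genes, all 7 members included. The exceptions, Dct, Gm22133, Pmel and Tyrp1, have deposited values only. The recovery and the fit were tested on simulated data.

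The test was limma 3.58.1 (R 4.3.3), with group and library set as terms, fitted with trend and robust moderation to all 9 deposited columns, with 5 residual degrees of freedom. The p-values were adjusted by Benjamini-Hochberg over all genes, with a threshold of 0.05. All differences are the first-named group minus the second. No filter on low values was used, and all 7 members were tested. Alternatives, 20 beside the main setting, changed the terms, the moderation, the scale, the filter or the libraries, and 1 of them was added after seeing the data. Ratios were compared by exact permutation tests. The rule for naming genes beside the members was those past the threshold in 11 lists (106 genes, 81 in the table, at most 6 a list), 7 fixed names and the 5 nearest patterns. Other genes of short lists, and Spry1, Eif2s3y and Xist as checks, are named outside that rule, chosen after their values were seen. Some listed genes are not reported here. The members and lists were chosen with earlier results of these data known. Gene coordinates are from GENCODE vM21 on GRCm38, counted from 1. Promoters are from RefSeq, for H2-K1, which has 2 entries, the one nearest the GENCODE start. The window of H2-D1 and 154 bases of that of H2-T23 lie in an annotated exon, so a short stretch of each is printed. Library totals of 45.7 to 67.8 M (mega) counts make counting error small beside the spread between libraries, except for the Q genes in tail.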

Additional observations from a re-analysis of the deposited data

How the results depend on the processing

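In knockout back against knockout tail 4 members passed, against 1 with the replicate block and library set and 0 without the first and second knockout back libraries. Leaving out 1 library at a time gave 1 to 5, with 1 without the first knockout tail library and 2 without the first or second control. In knockout back against control tail 6 passed, against 3 with the replicate block and library set, 1 without the first and second knockout back libraries, and 3 to 6 when 1 library was left out, the lowest without the second control. In knockout tail against control tail 0 passed in every setting, and 0 to 0 when 1 library was left out. The deviations of same-numbered libraries had correlations of -0.70 to 0.08. The value of -0.70 was for libraries 3 of knockout back and knockout tail, which form the smaller set. Removal of the set shift tied the values of these libraries to each other, so this correlation cannot show whether they are paired. The numbers were not taken to pair the samples in the main setting. Same-numbered back and tail libraries held different sex-linked transcripts. Xist had 1313 and 1266 counts in the first and second knockout back libraries, against 5 and 19 in those of knockout tail. Eif2s3y had 3922 in the third knockout back library and 0 in the third knockout tail library. Pairing by part of the animals or by shared handling was not excluded. The calls lost under the block therefore remain uncertain. H2-K1 passed in 19 of 20 settings against knockout tail and in 20 of 20 against control tail, H2-D1 in 17 and 19, H2-Q6 in 10 and 13 of 19, H2-Q7 in 12 and 14, H2-T23 in 1 and 17, B2m in 8 and 19 and H2-Q4 in 0 of 19 in both. Of the values for single members, 5 changed sign, all for Q genes in knockout tail against control tail: H2-Q4 (-0.36 to 0.06 with 1 library left out) to 0.06 without the first control, H2-Q6 (-0.14 to 0.86) to -0.14 without the second knockout tail library, and H2-Q7 (-0.31 to 0.19) to 0.19, 0.07 and 0.02 without the second control, the first knockout tail and the second knockout tail library.

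Counts over all genes moved more. For knockout tail against control tail, 10 became 0 with group as the only term, with either replicate block, without trend and robust moderation, with limma-voom, with log2 of the normalised count plus 1, in the 7 libraries of the larger set and without the first and second knockout back libraries, and 6 with the removed shift put back and group as the only term (0 to 8 with 1 library left out). For knockout back against knockout tail, 71 became 244 with group only, 3 with the replicate block and library set, 21 with the block alone, 133 without trend and robust moderation, 202 with limma-voom, 189 with log2 plus 1, 1637 in the larger set, 1 without the first and second knockout back libraries and 31 with the shift put back (2 to 1642 with 1 library left out). For knockout back against control tail, 545 became 163 with group only, 5 and 42 with the block with and without the set, 285 without genes below the median, 2371 in the larger set, 8 without the first and second knockout back libraries and 217 with the shift put back (26 to 2385 with 1 library left out). With 1 library left out, the lowest counts for the knockout back comparisons came without the first knockout tail library (2) and without the second control (26), and counts above 1600 came without the third knockout tail or the third knockout back library. On deposited values another measure was used, the mean log2 value of the 6 heavy chains minus that of B2m. It weighs the Q genes, low in tail, like the others. It differed by -0.55 for knockout tail against control tail and 0.83 for knockout back against knockout tail. With 1 library left out, the log2 ratio of summed counts ran from -0.34 to 0.12 for knockout tail against control tail. It was 0.12 without the third control and 0.02 without the second knockout tail library. The range was 0.01 to 0.53 for knockout back against knockout tail. For knockout back against control tail it was -0.10 (without the third knockout back library) to 0.42. Apart from that change of measure, the cause of these changes was not tested.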
